A study of Mus musculus with 4 samples.

Results

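Muscle fibres sense stretch and load at the sarcomere, and several small protein families sit where that force is carried. The muscle ankyrin-repeat proteins bind the elastic part of titin and can also enter the nucleus. The muscle LIM proteins are adaptors of the Z-disc, the thin-filament anchors and the nucleus. The calsarcins, encoded by the Myoz genes, tether the phosphatase calcineurin to alpha-actinin at the Z-disc. Genes of these families are known to respond to stretch, loading or denervation, and some are typical of slow or of fast fibres.

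The open chromatin assigned to 10 such genes was described here: Ankrd1, Ankrd2, Ankrd23, Csrp3, Fhl1, Fhl3, Smpx, Myoz1, Myoz2 and Myoz3. They were chosen by name, and a peak belonged to a gene when the authors' annotation gave that gene as the one with the nearest transcription start site (TSS). In all, 78 of 120839 peaks and 42 of 53883 merged regions belonged to them, a merged region being a stretch covered by peaks that overlap by at least 1 bp.

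The peaks came from ATAC-seq, in which the Tn5 transposase cuts accessible DNA, on whole frozen muscle of sedentary wild-type mice, of strain C57BL/6 by the labels and male C57BL/6J mice by the study's methods. The quadriceps (Quad) and the extensor digitorum longus (EDL) are leg muscles of mainly fast, glycolytic fibres, the soleus (Sol) is a slow, oxidative one, and the diaphragm (Dia) is the muscle of breathing. Each muscle had 1 library, which the labels call pooled, without separate replicates analysed here. No p-value was therefore computed between muscles, and each difference describes these libraries.

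The lists held 40337 peaks in Quad, 30136 in EDL, 28784 in Sol and 21582 in Dia. The peak score is a tag count that the HOMER software scales to library size, and its percentile here is the share of peaks in the same list with a lower score, with ties split evenly. Peaks were 188 bp wide in Quad, 208 bp in EDL, 206 bp in Sol, save for 1 shorter peak that belonged to none of the 10 genes, and 232 bp in Dia. Scores below 10, which were between 69.0% and 74.9% of each list, were whole multiples of one step to within 0.005, and higher scores, given with fewer decimals, were rounded to the nearest whole tag. The steps gave inferred depths of 78.1 M tags (M, mega) in Quad, 104 M in EDL, 105 M in Sol and 99.3 M in Dia. The weakest peak of a list held between 25 and 36 tags. A gene without a peak is one where none was called, whatever the signal below that limit.

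The labelled tissues were checked against marker genes. Of 7 skeletal fibre genes, 7 held a peak in Quad and in Sol and 6 did in EDL and in Dia, where Tnnt3 had none. The heart genes Myh6 and Nppa held none anywhere. Of 4 slow-fibre genes, 3 held a peak in Sol, 3 in Quad, 1 in EDL and 1 in Dia. Myh7 was listed in Sol alone, Tnnt1 in Quad alone, Myl3 in Sol and Quad, and Myl2 in every list. Myl3 had 3 peaks in Sol, up to percentile 82.7, and 1 in Quad at 7.89. Myl2 reached percentile 67.9 in Sol, 39.6 in EDL, 20.8 in Quad and 2.92 in Dia. Peaks of the slow-fibre genes numbered 8 in Sol, 3 in Quad, 1 in EDL and 1 in Dia. Of 4 fast-fibre genes, 4 held a peak in EDL and in Quad, and 2 did in Sol and in Dia. Myh4, listed in EDL, Quad and Sol, reached percentiles of 84.3, 76.4 and 17.6 in that order. Peaks of the fast-fibre genes numbered 9 in Quad, 4 in EDL, 3 in Sol and 3 in Dia. By presence of a peak alone the fibre-type markers thus did not divide the lists cleanly, although slow-fibre peaks were most numerous in Sol. Genes of the endothelium, fibroblasts, smooth muscle and satellite cells also held peaks. All 3 endothelial genes did in every list. Fibroblast genes with a peak numbered 3 of 3 in Quad and EDL, 2 in Sol and 1 in Dia, smooth muscle genes 2 of 2 in Quad, EDL and Sol and 1 in Dia, and satellite cell genes 2 of 2 in Quad and 1 in each of the others. Of 3 macrophage genes, 2 held a peak in EDL and in Quad, 1 in Sol and 0 in Dia, and Cd68 held none in any list. The part of these other cells in the results below was not tested. In whole tissue, fewer cells with an open region and less opening per cell cannot be told apart.

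The 10 genes held 21 peaks in Quad, 19 in EDL, 26 in Sol and 12 in Dia. Sol, the list with the second fewest peaks in all, thus held the most. Per gene and in the same order this was 2.1, 1.9, 2.6 and 1.2 peaks, against 2.35, 1.76, 1.68 and 1.26 over the 17157 genes named in any list. All 10 genes held a peak in EDL and in Sol, while 8 of 10 did in Quad and 8 of 10 in Dia. The shares over all genes were 90.8% in Quad, 81.5% in EDL, 81.4% in Sol and 75.3% in Dia. Quad had no peak for Csrp3 or Smpx, and Dia had none for Fhl3 or Myoz3.

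**Figure D1:**
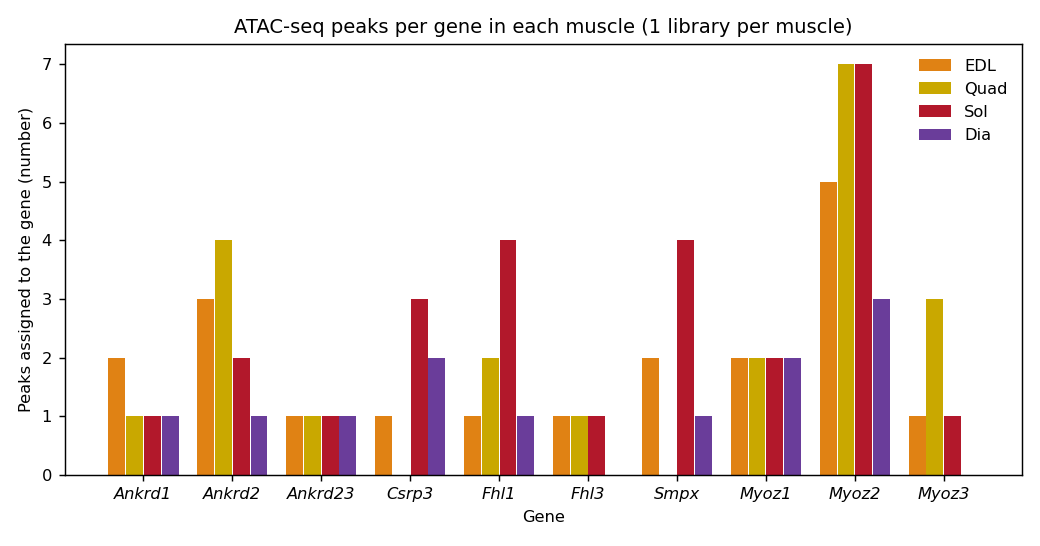
Bars give the number of peaks (y axis) assigned to each gene (x axis) in the single library of EDL, Quad, Sol and Dia. Myoz2 has the most peaks, 22 over the 4 lists, and Sol exceeds Quad at Csrp3, Fhl1 and Smpx, where Quad has 0, 2 and 0 peaks and Sol has 3, 4 and 4.

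Promoter peaks, those between 1 kb before and 100 bp after a TSS as the authors annotated them, were few. They marked 3 of the 10 genes in Quad, 3 in EDL, 4 in Sol and 4 in Dia. Over all genes the shares were 56.8% in Quad, 51.8% in EDL, 51.5% in Sol and 50.5% in Dia. Ankrd2 and Fhl1 were the only members with a promoter peak in every list. Ankrd23, Csrp3, Myoz1 and Myoz3 had none in any list.

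Many of the peaks did not lie in the gene to which they were assigned. Of the 78 peaks, 35 lay in a transcript of the assigned gene (its promoter included), 8 were intergenic and 35, or 44.9% (95% Wilson interval 34.3% to 55.9%), lay in a transcript of another gene. Over all lists that share was 14.2%. The interval takes the peaks as independent, although a region shared by several lists counts once for each, and 21 of the 35 lay in Synpo2. Of the 42 merged regions, 16 lay in another gene. The other genes were Synpo2 for 21 of 22 Myoz2 peaks, Ubtd1 for 6 of 10 Ankrd2 peaks, Ankrd39 for 4 of 4 Ankrd23 peaks and Synpo for 4 of 5 Myoz3 peaks. Synpo2 and Synpo encode actin-binding proteins of the synaptopodin family. Which gene such a region acts on was not measured.

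**Figure D2:**
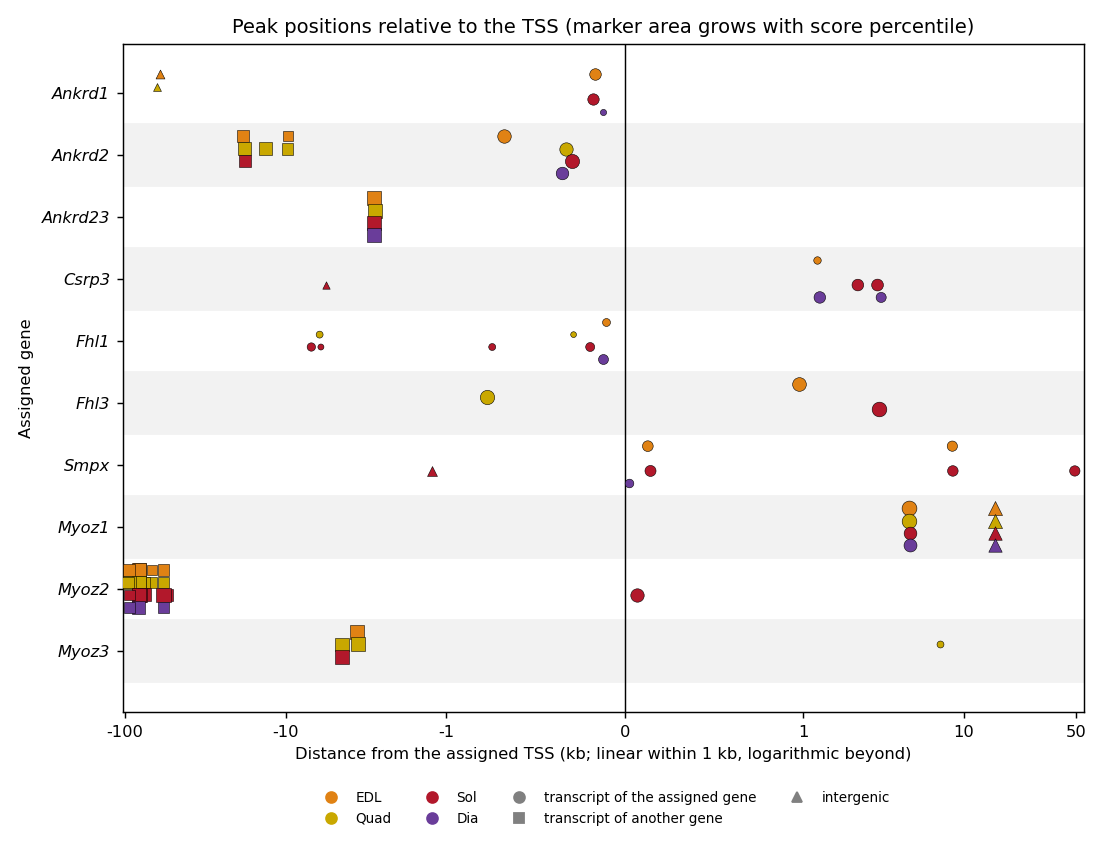
Each marker is 1 peak, placed by its distance from the assigned TSS (x axis, kb, linear within 1 kb and logarithmic beyond) and its gene (y axis), with colour for the muscle, shape for the transcript it lies in and area growing with score percentile. Circles in the assigned gene gather within 10 kb of the TSS except for 1 Smpx peak, whereas the Myoz2 squares lie between 54745 and 96235 bp upstream.

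The 42 merged regions were shared less widely than regions in general. In all 4 lists 5 regions were open, or 11.9% (95% Wilson interval 5.19% to 25.0%), against 26.9% of all merged regions. Those 5 were the Ankrd23 region, both Myoz1 regions and 2 of the Myoz2 regions, and only Myoz1 intron 3 lay inside the assigned gene. Of the 10 regions with a promoter peak, none was open in all lists, against 66.1% of all merged regions with a promoter peak. A further 3 of those 10 were listed in 3 muscles, 1 in 2 muscles and 6 in a single muscle. None of the 5 regions open in all lists held a promoter peak, whereas 7760 of the 14497 such regions overall did. No share over all regions was computed for those without a promoter peak. A lower share is therefore not shown for member regions outside promoters.

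Regions listed in Sol alone were the most frequent class, with 10 of 42, or 23.8%, against 8.62% of all regions. Quad alone had 7 regions, or 16.7%, against 22.7%. Counted as peaks, 10 of the 26 Sol peaks had no overlapping peak of any other list, or 38.5% (22.4% to 57.5%), against 16.1% of the whole Sol list. The same counts were 4 of 19 in EDL (12% of the whole list), 7 of 21 in Quad (30.3%) and 0 of 12 in Dia (11.5%), where 0 of 12 allows a share of up to 24.2%. The Sol peaks alone were spread over Csrp3 with 2, Fhl1 with 3, Fhl3 with 1, Smpx with 2 and Myoz2 with 2.

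Another 3 regions were listed in every muscle but Quad, or 7.14%, against 1.09% of all regions. They were the Ankrd1 promoter, the Smpx start and a Myoz2 region 57623 to 57743 bp upstream. At the last of these a Quad peak ended 14 bp from the EDL peak. At the Ankrd1 promoter and the Smpx start the nearest Quad peaks were 36073 bp and 118459 bp away.

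EDL and Dia shared 10 of the 21 regions that either listed, or 47.6%, equal to 47.6% over all regions. That was 52.6% of the EDL regions and 83.3% of the Dia regions. Every other pair shared less than over all regions. Quad and Sol shared 11 of 36, or 30.6%, against 46.0%, and EDL and Quad, both fast muscles, shared 9 of 31, or 29.0%, against 52.8%. EDL and Sol shared 10 of 35, or 28.6% (16.3% to 45.1%), against 53.7%. Sol and Dia shared 10 of 28, or 35.7% (20.7% to 54.2%), against 49.4%, and Quad and Dia 6 of 27, or 22.2% (10.6% to 40.8%), against 39.2%. Of the Dia regions, 83.3% were also listed in EDL and 83.3% in Sol. Over all regions, EDL and Dia shared 16685 and Sol and Dia 16662, beside 21582 peaks in the Dia list and 30136 in EDL. These shares of a single list are therefore not read as a trait of the 10 genes.

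**Figure D3:**
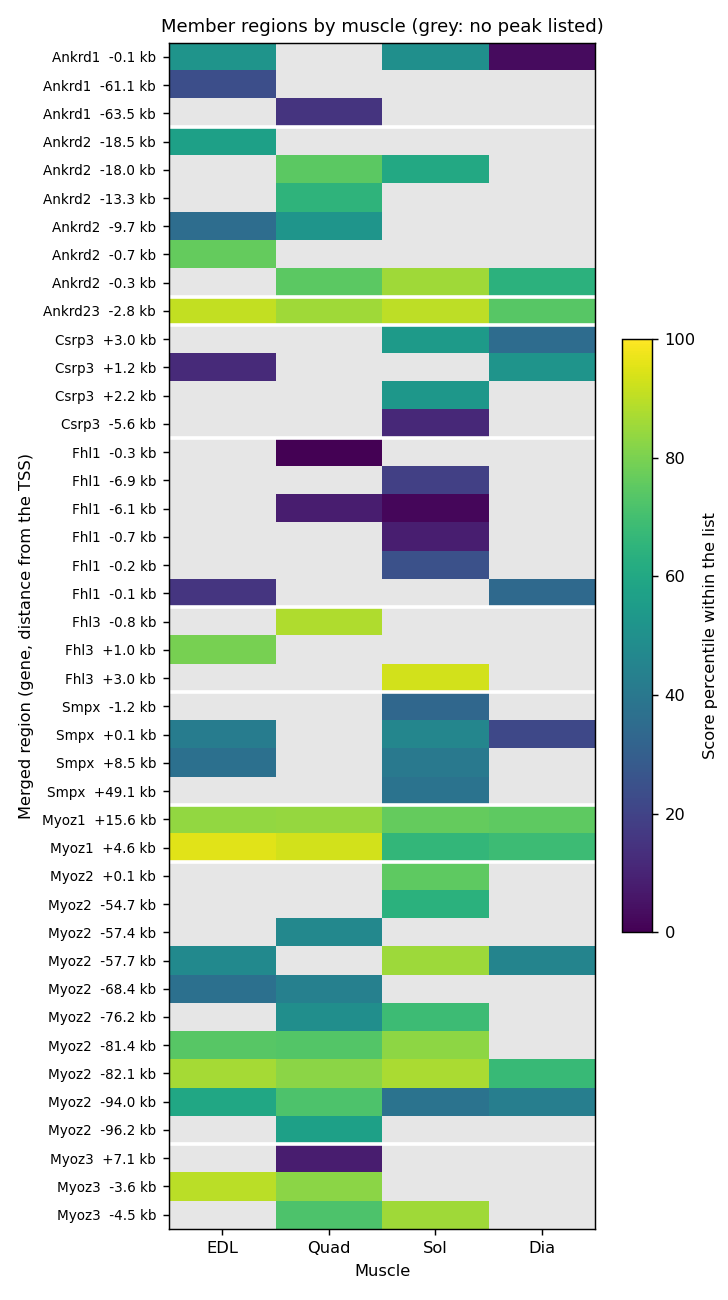
Rows are the 42 merged regions, named by gene and midpoint of the peaks' distances from the TSS in kb, columns are the muscles, and colour gives the score percentile within that muscle's list, with grey where no peak was listed. Only 5 rows are filled in all 4 columns, and the Sol column has 10 cells filled in no other muscle.

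The member peaks had median score percentiles of 71.9 in Quad, 57.0 in EDL, 57.4 in Sol and 48.4 in Dia. A whole list has a median near 50 by construction, so the Quad members lay above the middle of their list. The highest were in Myoz1 intron 3 in EDL at 95.4 and in Quad at 93.3, and in Fhl3 intron 1 in Sol at 93.2. The highest Dia peak, in the intergenic Myoz1 region, reached 75.1. Fhl1 and Smpx, on the X chromosome, had low scores. The median of their peaks was 4.13 in Quad (2 peaks, both of Fhl1), 37.0 in EDL (3), 29.1 in Sol (8) and 27.9 in Dia (2). All X peaks had medians of 48.0, 40.9, 37.0 and 45.3 in the same order, below their lists' midpoints, though only slightly so in Quad. Males carry the X chromosome once, and the part of this in the scores was not tested.

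Ankrd1 encodes the cardiac ankyrin-repeat protein, low in resting muscle and known to rise with injury and load. Its promoter region (GRCm38.p6, chr19:36119850-36120124) held a peak in 3 lists. The score was 7.12 in EDL, 7.17 in Sol and 4.23 in Dia, and no peak was listed in Quad. EDL and Sol did not differ beyond counting error, with an EDL to Sol ratio of 0.993 (95% interval 0.711 to 1.39, exact for the counts of tags). Dia was lower than both, with an EDL to Dia ratio of 1.68 (1.14 to 2.52). The Dia peak lay close to the calling limit, with 42 tags against 36 at the weakest Dia peak, at percentile 2.92. The remaining peaks were intergenic, 61077 bp upstream in EDL and 63490 bp upstream in Quad, and did not overlap. This window of the promoter (plus strand, chr19:36119922-36120121, around the centre of the highest-scored peak) is shown because it held 3 motif matches. Capitals mark CATTCC, the MCAT element bound by TEAD factors, which occurs 2 times, and CAGCTG, the E-box of myogenic factors, at the end.
Ankrd1 promoter: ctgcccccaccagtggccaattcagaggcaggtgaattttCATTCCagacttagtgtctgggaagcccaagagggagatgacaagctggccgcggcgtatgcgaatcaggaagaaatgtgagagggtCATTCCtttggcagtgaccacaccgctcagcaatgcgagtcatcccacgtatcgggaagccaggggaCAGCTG

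Ankrd2 encodes a titin-binding ankyrin-repeat protein typical of slow fibres and known to rise with stretch. A promoter region was listed in Quad, Sol and Dia, with scores of 9.99, 13.5 and 9.27. Sol was higher than Dia, with a Sol to Dia ratio of 1.46 (1.11 to 1.91). The Quad to Sol ratio was 0.740 (0.555 to 0.984), but per bp of peak width it was 0.811 (0.608 to 1.08), so Quad and Sol were not separated. The EDL promoter peak was centred 679 bp upstream, against 295 to 353 bp in the other lists, and ended 106 bp from the Dia peak, with a score of 10.7. EDL was thus also open in this promoter, but at a position that no other list shared.

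The distal Ankrd2 peaks all lay in intron 1 of Ubtd1, the neighbouring gene. Quad and Sol shared a region 17961 to 18016 bp upstream, with scores of 9.99 and 8.32 and a ratio of 1.20 (0.873 to 1.65). The EDL peak nearby, with a score of 7.70, was 237 bp from the Quad peak. Quad alone had a peak 13328 bp upstream with a score of 8.32, and Quad and EDL shared one 9685 to 9739 bp upstream with scores of 6.79 and 5.77. Dia had no distal peak. The shared window of Quad and Sol (GRCm38.p6, plus strand, chr19:42017923-42018122) is printed with the promoter window (chr19:42035644-42035843), since both hold a CAGCTG E-box and the distal one also 2 AP-1 sites. Capitals mark CAGCTG and, in the distal window, TGAGTCA.
Ankrd2 distal, in Ubtd1 intron 1: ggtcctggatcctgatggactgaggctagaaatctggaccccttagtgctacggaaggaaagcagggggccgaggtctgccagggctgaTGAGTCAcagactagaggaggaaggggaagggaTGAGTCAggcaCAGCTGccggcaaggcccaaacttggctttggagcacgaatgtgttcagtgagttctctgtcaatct
Ankrd2 promoter: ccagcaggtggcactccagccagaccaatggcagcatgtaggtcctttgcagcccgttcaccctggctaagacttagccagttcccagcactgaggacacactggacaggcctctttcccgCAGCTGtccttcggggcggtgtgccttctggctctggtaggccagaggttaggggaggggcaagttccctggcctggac

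Ankrd23 encodes the third muscle ankyrin-repeat protein, which also binds titin. It had 1 region, open in all lists, in exon 4 of 4 of a non-coding transcript of its neighbour Ankrd39, 2790 to 2826 bp upstream (GRCm38.p6, chr1:36539252-36539498). The scores were 13.3 in Quad, 16.0 in EDL, 15.4 in Sol and 11.0 in Dia, at percentiles of 85.9, 90.9, 90.1 and 74.1. EDL and Sol did not differ beyond counting error, with a ratio of 1.04 (0.831 to 1.30). Dia was lower than EDL, with an EDL to Dia ratio of 1.45 (1.14 to 1.87), and lower than Sol, with a Sol to Dia ratio of 1.40 (1.09 to 1.80). The Quad to Dia ratio was 1.21 (0.918 to 1.60), or 1.49 (1.13 to 1.98) per bp of peak width. The window (plus strand, chr1:36539273-36539472) is shown as the region of this family found in every muscle, with its E-box CAGCTG in capitals.
Ankrd23 region, in Ankrd39: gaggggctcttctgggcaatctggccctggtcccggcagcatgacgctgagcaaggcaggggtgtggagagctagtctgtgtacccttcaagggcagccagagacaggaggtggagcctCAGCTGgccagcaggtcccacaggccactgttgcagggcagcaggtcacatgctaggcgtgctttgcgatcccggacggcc

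Csrp3 encodes muscle LIM protein, a Z-disc adaptor known from cardiomyopathy and more abundant in slow fibres. It had 3 peaks in Sol, 2 in Dia, 1 in EDL and none in Quad, where the nearest peak of any gene was at least 27277 bp away. In intron 1, Sol and Dia shared a region at 2900 to 3055 bp, with scores of 7.65 and 6.24 and a Sol to Dia ratio of 1.23 (0.868 to 1.73). EDL and Dia shared another at 1226 to 1268 bp, with scores of 4.33 and 7.65, where Dia was higher (EDL to Dia ratio 0.566, 0.382 to 0.828). Sol alone had a further intron 1 peak, 2187 bp downstream of another Csrp3 start, with a score of 7.46, and an intergenic peak 5614 bp upstream with a score of 4.30. No Csrp3 region was listed in more than 2 muscles. The Sol peak of intron 1 (GRCm38.p6, plus strand, chr7:48845765-48845964) held none of the searched motifs, and it is shown as a region listed in Sol alone.
Csrp3 intron 1, Sol: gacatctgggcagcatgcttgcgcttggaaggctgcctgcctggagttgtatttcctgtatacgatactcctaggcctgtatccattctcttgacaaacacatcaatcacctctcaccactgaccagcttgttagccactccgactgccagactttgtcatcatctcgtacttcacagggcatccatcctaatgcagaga

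Fhl1 encodes an X-linked LIM-only protein in which mutations cause myopathies. It has several promoters, and the lists marked different ones. Quad had a peak 287 bp upstream of the first start, with a score of 3.59, at percentile 0.369. Sol had peaks 743 and 194 bp upstream of a second start, with scores of 4.11 and 5.16. EDL and Dia shared a region (GRCm38.p6, chrX:56786290-56786526) 105 to 121 bp upstream of another start, with scores of 4.52 and 6.14 and a ratio of 0.736 (0.492 to 1.09). The percentiles of all 8 Fhl1 peaks lay between 0.369 and 34.1, the lowest of them close to the calling limit of the list. In intron 2, Sol had a peak 6928 bp upstream of the second start with a score of 4.78, and Quad and Sol shared one at 6040 to 6151 bp with scores of 4.10 and 3.73. No promoter was listed in both Quad and Sol.

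Fhl3 encodes another LIM-only protein, known to bind actin and transcription factors. It had 1 peak each in EDL, Quad and Sol, and none in Dia. These were strong peaks at 3 separate places. The Quad peak lay in the promoter 772 bp upstream, with a score of 14.3 (percentile 88.3). The EDL peak lay in intron 1 at 974 bp, with a score of 11.4 (79.4), and the Sol peak in intron 1 at 2970 bp, with a score of 17.7 (93.2). The Quad and EDL peaks were 1548 bp apart, and the EDL and Sol peaks 1789 bp apart. HOMER's fixed-width mode also requires a peak to stand above the tags around it, and its part in which of these places was listed was not tested. The 3 windows (GRCm38.p6, plus strand, chr4:124699828-124700027, chr4:124701574-124701773 and chr4:124703570-124703769) are shown because each was listed in a single muscle. None held a searched motif, so they have no capitals.
Fhl3 promoter, Quad: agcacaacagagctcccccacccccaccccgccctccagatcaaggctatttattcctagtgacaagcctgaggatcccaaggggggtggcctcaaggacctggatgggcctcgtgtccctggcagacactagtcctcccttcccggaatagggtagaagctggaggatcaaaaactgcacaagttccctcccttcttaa
Fhl3 intron 1, EDL: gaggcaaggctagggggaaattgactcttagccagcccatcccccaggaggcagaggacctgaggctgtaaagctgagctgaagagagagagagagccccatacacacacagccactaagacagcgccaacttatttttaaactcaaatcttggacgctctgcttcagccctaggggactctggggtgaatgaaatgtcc
Fhl3 intron 1, Sol: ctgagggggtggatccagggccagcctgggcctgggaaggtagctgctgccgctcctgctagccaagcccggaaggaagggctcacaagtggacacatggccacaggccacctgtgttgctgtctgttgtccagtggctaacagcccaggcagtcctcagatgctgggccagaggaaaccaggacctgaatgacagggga

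Smpx encodes a small X-linked muscle protein of the costamere, the link between sarcomere and membrane. It had 4 peaks in Sol, 2 in EDL, 1 in Dia and none in Quad. The start region was listed in EDL, Sol and Dia with scores of 6.25, 6.79 and 5.34, centred 129, 144 and 24 bp downstream of the TSS. Only the Dia peak fell inside the promoter limit of 100 bp and was annotated as promoter. The 3 muscles did not differ there beyond counting error, with an EDL to Sol ratio of 0.920 (0.648 to 1.31) and a Sol to Dia ratio of 1.27 (0.878 to 1.85). Intron 3 was open in EDL and Sol, with scores of 5.87 and 6.31 (ratio 0.930, 0.646 to 1.34). Sol alone had peaks 1228 bp upstream and 49054 bp downstream, in intron 4, with scores of 5.73 and 6.12. The start window (GRCm38.p6, plus strand, chrX:157699018-157699217) is printed because it held the one MEF2 match among the 42 regions, in capitals.
Smpx start: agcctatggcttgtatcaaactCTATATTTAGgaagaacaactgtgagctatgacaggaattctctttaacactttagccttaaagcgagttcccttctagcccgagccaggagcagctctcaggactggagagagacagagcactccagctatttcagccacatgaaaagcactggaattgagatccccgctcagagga

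Myoz1 encodes the calsarcin of fast fibres. It had 2 regions, each open in all lists, and held the largest score ratio between muscles among the member regions. In intron 3, at 4563 to 4609 bp (GRCm38.p6, chr14:20651815-20652081), the score was 17.9 in Quad, 20.3 in EDL, 9.08 in Sol and 9.97 in Dia. The 95% Poisson intervals were 17.7 to 23.2 in EDL and 15.1 to 21.2 in Quad, against 7.35 to 11.1 in Sol and 8.10 to 12.1 in Dia. Both fast muscles were thus above both others without overlap of intervals. The ratio was 2.24 for EDL to Sol (1.75 to 2.88), 1.97 for Quad to Sol (1.51 to 2.59), 2.04 for EDL to Dia (1.60 to 2.61) and 1.80 for Quad to Dia (1.38 to 2.35). EDL to Quad was 1.13 (0.910 to 1.41) and Sol to Dia was 0.911 (0.680 to 1.22). Divided by peak width, the ratios were 2.21, 2.16, 2.27 and 2.22 in the order of the first 4.

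The second Myoz1 region, 15540 to 15606 bp downstream of the TSS and intergenic in the authors' annotation, differed little. Its scores were 12.6 in Quad, 12.6 in EDL, 10.8 in Sol and 11.2 in Dia, with an EDL to Sol ratio of 1.17 (0.900 to 1.51). Quad to Dia was 1.13 (0.847 to 1.49), or 1.39 (1.04 to 1.83) per bp of peak width. In the GENCODE annotation the nearest start there is that of 2810402E24Rik. The intron 3 window (GRCm38.p6, plus strand, chr14:20651878-20652077) is printed for its difference between muscles. Capitals mark TTTCCA, the reverse complement of the NFAT core TGGAAA.
Myoz1 intron 3: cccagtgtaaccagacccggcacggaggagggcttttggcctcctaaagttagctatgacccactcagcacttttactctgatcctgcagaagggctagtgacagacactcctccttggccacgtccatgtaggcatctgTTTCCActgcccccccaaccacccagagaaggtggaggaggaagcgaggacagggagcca

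Few regions anywhere differed this much. At least 2 times higher in EDL than in Sol were 0.442% of all regions shared by the 2 lists, and 1 of 10 member regions, Myoz1 intron 3. In the other direction 0.612% of all regions passed, and 0 of 10 member regions. From EDL to Dia 1.32% of all regions and 1 of 10 member regions passed, again Myoz1 intron 3. From Quad to Sol 0.873% of all regions passed and 0 of 11 member regions, although Myoz1 intron 3 passed per bp of peak width. From Sol to Dia 0 of 10 member regions passed. Per bp of peak width the Myoz2 region 57623 to 57743 bp upstream did, at 2.12 (1.58 to 2.87). The share of all regions was not computed for Sol to Dia. The median Quad to Sol ratio of the 11 member regions was 0.864, against 1.10 over 21764 shared regions.

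**Figure D4:**
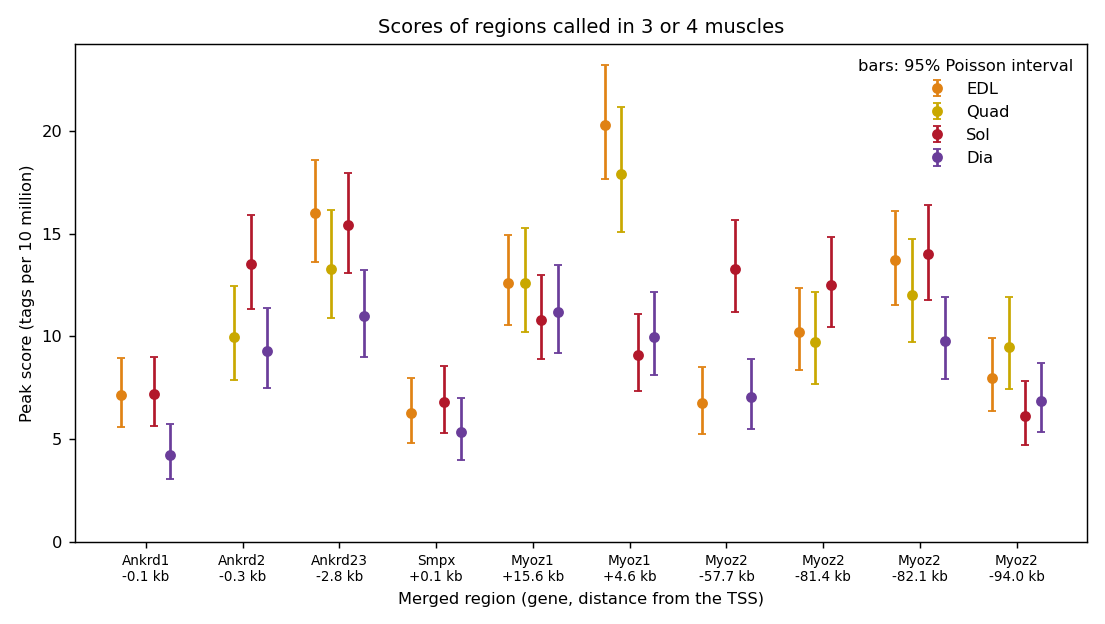
Points give the peak score (y axis, tags per 10 M) with its 95% Poisson interval for each muscle at the 10 merged regions listed in 3 or 4 muscles (x axis, gene and midpoint of the peaks' distances from the TSS). EDL and Quad stand at 20.3 and 17.9 above Sol and Dia at Myoz1 intron 3, and Sol stands at 13.3 above EDL and Dia at the Myoz2 region 57623 to 57743 bp upstream.

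Myoz2 encodes the calsarcin of slow fibres and heart. It had 22 peaks, 7 in Quad, 5 in EDL, 7 in Sol and 3 in Dia. Its only peak in its own gene lay 71 bp downstream of the TSS in Sol, with a score of 10.6 (percentile 75.2, Poisson interval 8.73 to 12.8). That peak was at least 50063 bp from any peak of the other lists. The promoter of the slow calsarcin was therefore listed in the slow muscle alone. The window (GRCm38.p6, plus strand, chr3:123034817-123035016) is printed for this, with the AP-1 site TGACTCA and the E-box CAGCTG in capitals.
Myoz2 promoter, Sol: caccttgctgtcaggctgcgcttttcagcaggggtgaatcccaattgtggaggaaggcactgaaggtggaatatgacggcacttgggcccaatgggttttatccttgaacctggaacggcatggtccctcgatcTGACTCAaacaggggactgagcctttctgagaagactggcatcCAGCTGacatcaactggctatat

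The other 21 Myoz2 peaks lay in Synpo2 and formed 9 regions. The region 57623 to 57743 bp upstream, in intron 4 of Synpo2, had scores of 6.73 in EDL, 13.3 in Sol and 7.05 in Dia. Sol was higher than both, with an EDL to Sol ratio of 0.506 (0.375 to 0.680) and a Sol to Dia ratio of 1.89 (1.40 to 2.55). A separate Quad peak, 57411 bp upstream, had a score of 6.28. Sol alone had a peak 54745 bp upstream in the same intron, with a score of 8.79, and Quad alone had one 96235 bp upstream in intron 1, with a score of 7.30. The window of the first region (GRCm38.p6, plus strand, chr3:123092603-123092802) is shown for its higher score in Sol, with its E-box CAGCTG in capitals.
Myoz2 upstream, in Synpo2 intron 4: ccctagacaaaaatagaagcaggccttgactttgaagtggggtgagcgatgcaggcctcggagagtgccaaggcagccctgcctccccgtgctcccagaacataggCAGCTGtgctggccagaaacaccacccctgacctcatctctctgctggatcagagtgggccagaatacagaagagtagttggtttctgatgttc

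Further regions in Synpo2 differed less. The region in exon 3 of Synpo2, 82087 to 82175 bp upstream, was open in all lists with scores of 12.0 in Quad, 13.7 in EDL, 14.0 in Sol and 9.77 in Dia. Dia was lower than Sol there (Sol to Dia ratio 1.43, 1.10 to 1.87), while EDL and Sol had a ratio of 0.979 (0.772 to 1.24). The other region open in all lists, in intron 1, was highest in Quad: 9.48 in Quad, 7.99 in EDL, 6.12 in Sol and 6.85 in Dia, with a Quad to Sol ratio of 1.55 (1.09 to 2.2). EDL, Quad and Sol shared a region in intron 3, 81309 to 81412 bp upstream, with scores of 10.2, 9.73 and 12.5. Quad and Sol shared one 76189 to 76194 bp upstream, where the scores were 6.53 and 9.46 and the ratio was 0.690 (0.482 to 0.977), or 0.756 (0.529 to 1.07) per bp of peak width. EDL and Quad shared one 68376 to 68383 bp upstream, with scores of 5.87 and 6.02. Of these regions, only the one in intron 1 differed between Quad and Sol both with and without division by peak width.

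Motifs were searched in the 200 bp around the centre of the best-scored peak of each region, on both strands. The E-box CAGCTG was found in 11 of 42 member regions and in 20.1% of all regions. The NFAT core TGGAAA was found in 7 (18.2% of all regions), the MCAT element CATTCC in 4 (12.1%), the AP-1 site (TGACTCA or TGAGTCA) in 2 (7.36%), MEF2 in 1 (3.78%) and the CArG box of serum response factor in 0 (1.08%). A further 23 of the regions held none of them. In a table of RefSeq promoters of the same build, 8 of the 10 genes were found, with 11 promoters. Of these, 3 held the MCAT element, at Ankrd1 and Ankrd23 only, against 14.7% of all promoters. The NFAT core was in 2 (21.4% of all promoters) and the E-box in 1 (16.3%). The AP-1 site was in 1 (5.20%), MEF2 in 1 (1.86%) and a CArG box in 1, at Fhl1 (1.63%). A match describes letters only.

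Myoz3 encodes the third calsarcin, typical of fast fibres. It had 3 peaks in Quad, 1 in EDL, 1 in Sol and none in Dia. Both fast muscles had a peak in the 3′ UTR of the neighbouring gene Synpo (GRCm38.p6, chr18:60595189-60595406), 3567 to 3586 bp upstream, with scores of 15.1 in EDL and 12.0 in Quad (ratio 1.26, 0.966 to 1.64). Sol had its peak nearby, in the same exon 3 of Synpo, 4468 to 4470 bp upstream and shared with Quad. The score there was 13.4 in Sol against 9.48 in Quad. The Quad to Sol ratio was 0.707 (0.527 to 0.945), or 0.775 (0.577 to 1.04) per bp of peak width. The Quad peak in intron 2 of Myoz3 itself was weak, with a score of 4.10. Sol and EDL thus had different regions, 677 bp apart, and Quad had both. As at Fhl3, the part of HOMER's requirement that a peak stand above the tags around it was not tested.

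The genes were set beside 30 other genes of the Z-disc, titin and LIM mechanosensing, which held 4.7 peaks per gene in Quad, 4.2 in EDL, 4.37 in Sol and 2.47 in Dia. All 30 had a peak in at least 1 list, and 25 had a promoter peak in Quad, 24 in EDL, 23 in Sol and 20 in Dia. Pdlim5, which encodes a PDZ and LIM protein of the Z-disc, had the most peaks in EDL with 14, and in Quad it had 17, as did Palld, which encodes the actin-binding palladin. Palld had the most in Sol with 15, and in Dia Ttn (titin), Pdlim5, Csrp1, Fhl2 and Ppp3ca (a calcineurin catalytic subunit) had 6 each. Between Quad and Sol the largest difference in number was at Pdlim5, with 17 and 13 peaks, and the largest difference the other way was at Actn2, the gene of an alpha-actinin, with 3 peaks in Quad and 6 in Sol. Of the 30 genes, 14 held more in Quad than they did in Sol, 9 held fewer and 7 had the same number. Of the 10 member genes, 2 had more in Quad (Ankrd2 and Myoz3), 3 had fewer (Csrp3, Fhl1 and Smpx) and 5 had the same number. Over all 17157 genes, 7840 had more, 2134 had fewer and 7183 the same.

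Likeness between genes was measured as the Euclidean distance of the highest score percentile in each of the 4 lists, with 0 where no peak was listed, against the 39 other genes of both lists. Myoz2 was nearest to Cmya5 at 5.86, Ankrd23 to Ttn at 6.95, Fhl3 to Flnc at 7.05, Myoz1 to Pdlim7 at 10.1, Myoz3 to Flnc at 11.2 and Ankrd2 to Myot at 12.5. Ankrd1 and Smpx were nearest to each other at 26.1, and so were Csrp3 and Fhl1 at 35.6. By this measure Ankrd1, Smpx, Csrp3 and Fhl1 stood apart from the 30 other genes more than the remaining members did. However, every highest percentile of Myoz2, Ankrd23 and Myoz3 came from a peak inside another gene, namely Synpo2, Ankrd39 and Synpo. Their likeness thus describes assigned peaks rather than the genes themselves. These distances rest on 4 libraries and describe them only.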

How the data were processed

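The authors aligned 42-bp read pairs to mm10 with Bowtie2 at its default settings, kept at most 1 tag per position, called peaks per library with HOMER's fixed-width factor mode and annotated each to the nearest TSS. A Tn5 offset and the removal of mitochondrial or repeat reads were not stated. The deposited peak score is a tag count scaled by library size, and the distance to the TSS is the authors' own. The study's legends give up to 2 ATAC-seq samples a group, but not how many each pooled list combines.

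The peaks of the 10 genes were taken by the authors' gene names, and peaks of the 4 lists were merged at 1 bp of overlap. Shares carry 95% Wilson intervals, scores exact Poisson intervals from inferred tags, and score ratios exact conditional binomial intervals, all of which cover counting error only. Inferred tags assume that scores are scaled to 10 M tags (M, mega). Host genes came from the authors' annotation, sequences from GRCm38.p6 (RefSeq), and nearest starts also from GENCODE vM21. Coordinates are 1-based. Scripts used Python 3.11.15, pandas 2.3.3 and SciPy 1.17.1 and were tested on simulated data.

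The genes, gene lists and motifs were chosen with earlier results of these data known, as were the alternatives given in the closing section. Each of the 10 genes is named with its peaks. Of the 30 other genes, those with the most peaks in a list or the largest difference between Quad and Sol are named, and likeness names the nearest gene. The printed sequences were selected, after their values were seen, from regions listed differently in Quad and Sol or holding a motif. The EDL window of Fhl3, which is neither, was added to show the 3 separate Fhl3 places.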

Additional observations from a re-analysis of the deposited data

How the results depend on the processing

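No paired analysis was possible because each muscle had 1 library. Of 62 values recomputed under another setting, 50 stayed within their counting interval or 1.5 times the count and 12 moved. With each peak given to the nearest GENCODE start, the genes kept 7 peaks in Quad, 9 in EDL, 16 in Sol and 7 in Dia, since the Synpo2, Ubtd1, Ankrd39, part of the Synpo and the intergenic Myoz1 and Ankrd1 peaks went to other genes. Sol still held the most. In the upper 50% of each list there were 14 peaks in Quad, 11 in EDL, 15 in Sol and 6 in Dia, so Sol led Quad by 1 peak. There 2 genes in Quad, 2 in EDL, 2 in Sol and 1 in Dia had a promoter peak. Within 50 kb of the TSS Quad held 13 peaks, EDL 13, Sol 20 and Dia 9. With promoters taken as 1 kb on either side, 5 genes in EDL, 5 in Sol, 4 in Dia and 3 in Quad had a promoter peak. In whole merged regions the CArG box was found in 1 region. Dividing scores by peak width, an alternative chosen after seeing the data, changed whether the interval of a score ratio excluded 1 for 7 of 56 ratios. It no longer did for 3, all Quad to Sol, and newly did for 4, all Quad to Dia. The share of regions open in all lists lay between 11.1% and 18.9% under the alternatives. Differences in depth, peak width and threshold between lists limit what a missing peak means.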
